A study of Mus musculus with 8 samples.

Results

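The 26 genes described here make, sense or move cholesterol in the cell. They were listed by name and found in a deposited table of 55421 Ensembl gene identifiers, and all 26 passed the filter on low values that left 16699 genes for testing. They comprise 7 enzymes of the mevalonate steps, 11 enzymes that turn farnesyl units into squalene and sterols, 5 proteins that sense sterols and switch on transcription, and 3 proteins that carry cholesterol out of the lysosome or through the cytosol. The libraries were poly-A RNA from mouse embryos at E9.25, with 9 to 11 somites. The embryos were either Gcnf-/-, homozygous for a mutation of the gene (Nr6a1) that encodes the orphan nuclear receptor germ cell nuclear factor, or wild type. Each embryo was cut into an anterior piece, up to and including the first pharyngeal arch, and a posterior piece, from the second arch on. This gave 4 groups of 2 libraries: Gcnf-/- anterior and Gcnf-/- posterior (numbers 159 and 163 in each), and wild type anterior and wild type posterior (numbers 153 and 156 in each). The labels give no strain, no description of the Gcnf allele, and do not say whether 2 libraries of a group stem from different embryos. The p-values thus speak only to variation among these libraries, which may be technical within the wild type groups.

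Cells build cholesterol from acetyl-CoA by way of mevalonate, farnesyl diphosphate, squalene and lanosterol. The genes of the pathway are switched on together by SREBP transcription factors. When sterols are low, the escort protein SCAP carries SREBP precursors from the endoplasmic reticulum to the Golgi, where they are cut and released. When sterols are high, INSIG proteins hold SCAP and SREBP back. In the embryo, cholesterol is needed for membranes and for making and receiving Hedgehog signals, and defects of sterol synthesis cause malformations of the face and limbs.

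Read totals, recovered from the deposited TPM values (a length-corrected level relative to the total of a library), were 27064114 to 52957993 per library. At these totals, 3 reads on a transcript of 1 kb amount to 0.2 to 0.403 TPM, and the 26 genes rested on 161 to 27200 reads each in a library. Nr6a1 had 240 and 202 TPM in Gcnf-/- anterior libraries against 194 and 205 TPM in wild type anterior libraries, and 158 and 116 TPM in Gcnf-/- posterior libraries against 157 and 165 TPM in wild type posterior libraries. The level of the gene therefore does not check the genotype labels, since the altered part is not given. The region labels were checked on marker genes: 10 of 10 anterior markers were lower in the posterior pieces of wild type embryos and 8 of 10 in those of Gcnf-/- embryos (1 was higher), while 13 of 13 posterior markers were higher in both. Sex was unequal: Xist had 25.3 and 30.9 TPM in the anterior and posterior Gcnf-/- libraries numbered 159 and at most 0.0749 TPM in the other 6, and the Y-linked Ddx3y had 0.155 and 0.0768 TPM in the same 2 libraries and 26.2 to 39.4 TPM in the other 6. Gcnf-/- libraries 159 and 163 of a region are therefore not repeats of the same embryo, while the markers leave this unsettled for the wild type libraries, which match in sex. These are bulk pieces of tissue, so a change in the number of cells of a type and a change in RNA per cell cannot be told apart.

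In the anterior pieces, most of the cholesterol genes were higher in Gcnf-/- embryos. The set was chosen with earlier results of these data known, so its counts are a description. Of the 26 genes, 19 rose and 0 fell at an adjusted p below 0.05 (limma on log2(TPM + 1), Benjamini-Hochberg adjustment over all 16699 genes), where 13.3% of all genes rose and 10.2% fell. Among the 18 enzymes 14 rose, with a median difference of 1.00 on the log2 scale, and over all 26 genes the median was 0.87, against 0.020 over all genes tested. Both Gcnf-/- libraries lay above both wild type libraries for 25 of the 26 genes, a pattern that 35.1% of all genes showed, and both lay below for Scap alone, as they did for 32.3% of all genes. Summed over the 18 enzymes, the level was 2634 and 1985 TPM in Gcnf-/- anterior libraries against 1042 and 1185 TPM in wild type anterior libraries.

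**Figure D1:**
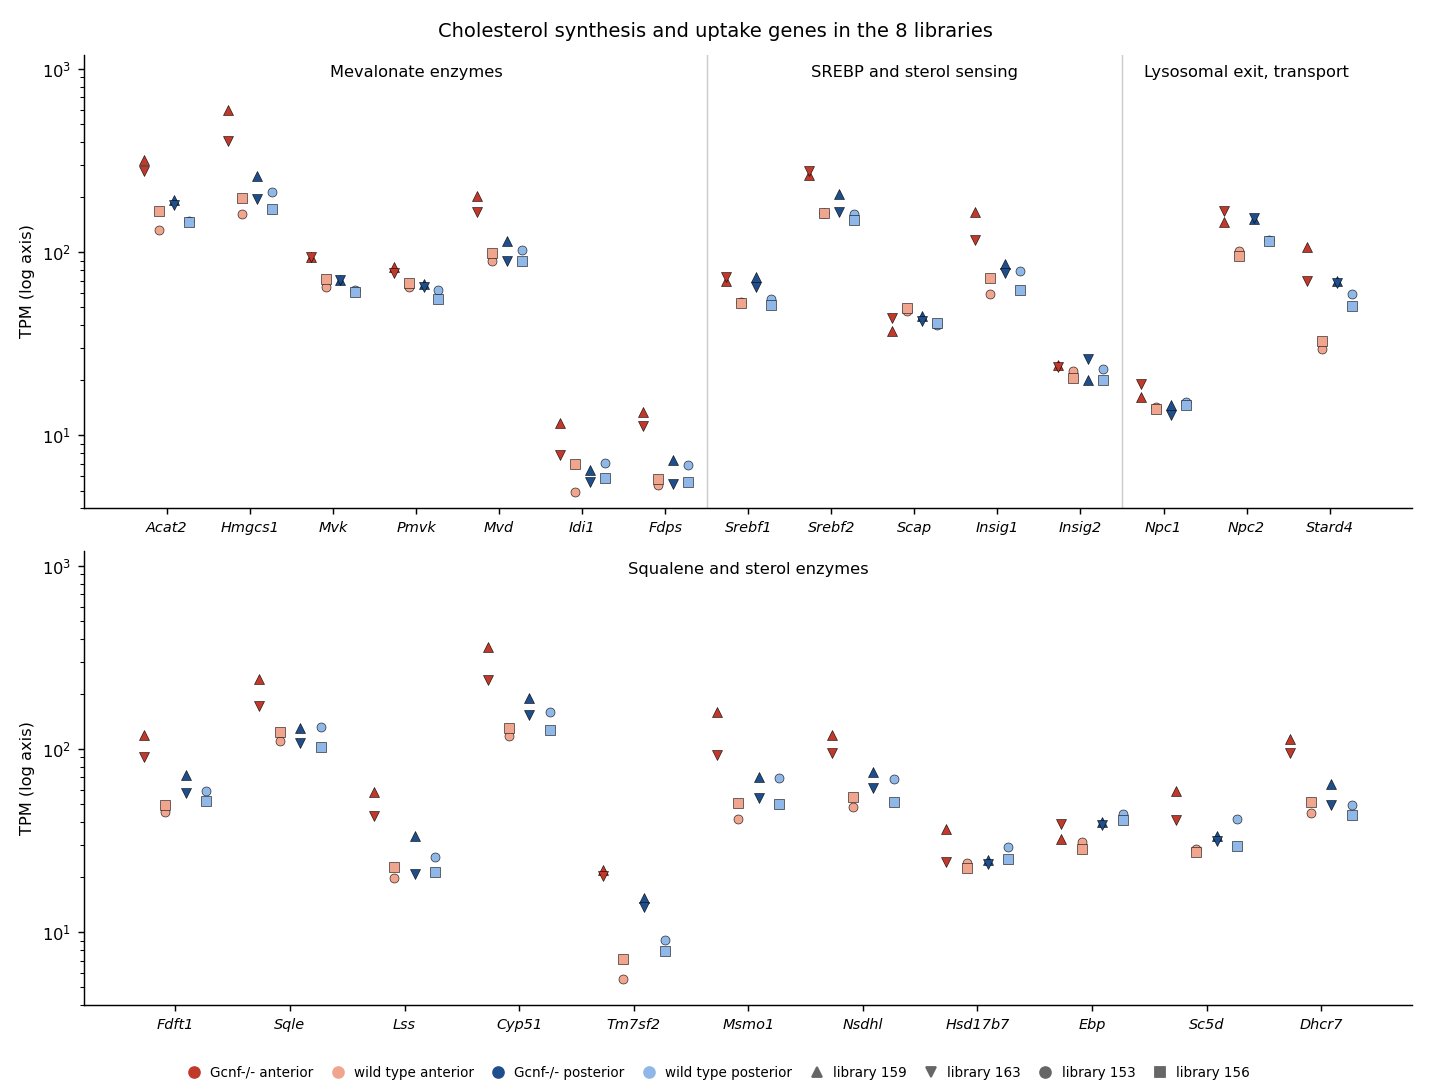
Level of each of the 26 genes in TPM (log axis) in each of the 8 libraries, with colour for genotype and region and marker shape for library number. Gcnf-/- anterior libraries (dark red) stood above wild type anterior libraries (light red) for every gene but Scap (35.1% of all genes showed this). Gcnf-/- posterior libraries (dark blue) stood above wild type posterior libraries (light blue) for 9 genes (33.4% of all genes) and below for 2 (19.8%).

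The promoters of some of these genes are shown because the pathway is known to be controlled at that point, by SREBP at sterol regulatory elements together with NF-Y at CCAAT boxes. Sequences are from RefSeq (GRCm38.p6), 250 bases before to 50 bases after a RefSeq start, written 5′ to 3′ on the strand of the gene. Capitals mark each match to CCAAT on either strand (ATTGG where it lies on the other strand) and each match to the sterol element core TCACNCCAC. The 5 genes are Hmgcs1 and Msmo1, from the early and the late steps, Tm7sf2, with the largest anterior difference, Acat2, which had no match, and Ebp, an enzyme that was not called higher in the anterior pieces. The windows lie at chr13:119690101-119690400 (plus strand) for Hmgcs1, chr8:64733529-64733828 (minus) for Msmo1, chr19:6067801-6068100 (minus) for Tm7sf2, chr17:12960676-12960975 (minus) for Acat2 and chrX:8193463-8193762 (minus) for Ebp.
Hmgcs1: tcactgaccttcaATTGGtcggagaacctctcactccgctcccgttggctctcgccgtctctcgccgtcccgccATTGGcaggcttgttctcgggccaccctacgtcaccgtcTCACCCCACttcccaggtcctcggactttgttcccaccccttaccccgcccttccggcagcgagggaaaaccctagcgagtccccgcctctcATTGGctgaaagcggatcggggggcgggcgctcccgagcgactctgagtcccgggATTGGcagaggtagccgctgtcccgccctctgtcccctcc
Msmo1: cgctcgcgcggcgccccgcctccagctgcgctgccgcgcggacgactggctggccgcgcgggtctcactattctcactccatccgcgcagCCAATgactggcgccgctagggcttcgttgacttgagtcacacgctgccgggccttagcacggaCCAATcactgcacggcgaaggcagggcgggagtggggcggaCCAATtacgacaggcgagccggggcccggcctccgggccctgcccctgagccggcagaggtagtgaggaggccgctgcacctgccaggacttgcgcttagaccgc
Tm7sf2: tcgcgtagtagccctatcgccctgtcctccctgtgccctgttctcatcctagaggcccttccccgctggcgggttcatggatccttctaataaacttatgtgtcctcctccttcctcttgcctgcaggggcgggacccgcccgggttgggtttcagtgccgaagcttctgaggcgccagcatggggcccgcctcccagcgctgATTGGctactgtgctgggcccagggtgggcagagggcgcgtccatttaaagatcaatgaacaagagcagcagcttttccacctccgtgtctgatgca
Acat2: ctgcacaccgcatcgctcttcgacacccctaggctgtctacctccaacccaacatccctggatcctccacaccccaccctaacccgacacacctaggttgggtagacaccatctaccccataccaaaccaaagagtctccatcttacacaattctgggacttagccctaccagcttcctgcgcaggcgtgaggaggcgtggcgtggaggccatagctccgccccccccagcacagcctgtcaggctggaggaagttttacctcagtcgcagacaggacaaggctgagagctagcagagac
Ebp: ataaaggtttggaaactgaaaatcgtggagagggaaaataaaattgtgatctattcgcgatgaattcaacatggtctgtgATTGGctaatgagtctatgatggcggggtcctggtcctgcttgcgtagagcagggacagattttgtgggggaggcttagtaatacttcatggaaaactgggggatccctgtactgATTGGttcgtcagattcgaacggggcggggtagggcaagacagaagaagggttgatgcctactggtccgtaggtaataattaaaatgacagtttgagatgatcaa
Hmgcs1 held 4 CCAAT matches and the 1 sterol element core found, which began 137 bases before the start. Msmo1 held 3 CCAAT matches, Ebp 2, Tm7sf2 1 and Acat2 0. The RefSeq start lay 523 bases from the GENCODE gene start for Tm7sf2 and 214 bases for Msmo1. For Hmgcs1, Acat2 and Ebp the distance was 28, 22 and 0 bases, so the windows are not placed alike.

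Over the set, 21 of the 26 genes had a window in the RefSeq table, and Fdps, Fdft1, Sqle, Npc1 and Stard4 had none. CCAAT lay in at least 1 window of 19 of the 21 genes (90.5%), against 41.1% of all 27025 gene symbols with a window. In a window, 2 or more matches were found for 11 of the 21 (52.4%), against 13.3%. A gene with several windows is more likely to hold a match. Counted by window, 20 of 29 held CCAAT (69.0%), against 37.4% of all 32851 windows. Acat2 and 1 other gene, Scap, had no match. The core TCACNCCAC was found in Hmgcs1 alone, and 1.24% of all 32851 windows held it. The direct repeat of AGGTCA with no spacer, an element known to be bound by germ cell nuclear factor, lay in 0 of the 29 windows of these genes and in 0.00609% of all windows. The extended half-site TCAAGGTCA, which that repeat contains, also lay in 0 of the 29 and in 0.423% of all windows. Both strands were searched for every motif. A match is a run of letters in this window and was not tested as a binding site.

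Of the 7 mevalonate enzymes, 5 rose in the anterior pieces, with a median difference of 0.94. Values are given for library 159 before 163 and for library 153 before 156, and differences as Gcnf-/- minus wild type on the log2(TPM + 1) scale ± SE. Acat2, the thiolase that joins acetyl-CoA units in the cytosol, had 317 and 277 TPM in Gcnf-/- anterior libraries against 133 and 167 TPM in wild type anterior libraries (0.99 ± 0.12, adjusted p = 0.0011). Hmgcs1, the synthase that adds the next acetyl unit, had 595 and 404 TPM in Gcnf-/- against 162 and 197 TPM in wild type (1.45 ± 0.21, adjusted p = 0.0022). It had the highest mean of the 26 genes in all 4 groups. Mvk, mevalonate kinase, had 94.4 and 94.1 TPM in Gcnf-/- against 64.4 and 71 TPM in wild type, the smallest called change among the enzymes (0.47 ± 0.09, adjusted p = 0.0066). Mvd, the decarboxylase that makes the isoprene unit, had 202 and 165 TPM in Gcnf-/- against 90.0 and 99.3 TPM in wild type (0.94 ± 0.15, adjusted p = 0.0031). For each of these enzymes the groups were separate. Fdps, which builds farnesyl diphosphate, had 13.4 and 11.2 TPM in Gcnf-/- against 5.35 and 5.80 TPM in wild type (1.01 ± 0.17, adjusted p = 0.0042). The 2 enzymes that did not pass were Pmvk, the next kinase (80.2 ± 3.9 TPM in Gcnf-/-, 66.1 ± 2.4 TPM in wild type, SD, n = 2 each; difference 0.27, adjusted p = 0.07), and Idi1, the isopentenyl isomerase (9.74 ± 2.7 TPM in Gcnf-/-, 5.93 ± 1.5 TPM in wild type; difference 0.62, adjusted p = 0.067).

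Some of these levels depend on how reads shared between genes were counted, and no source used here states that. Of the 50-base windows along the exons of Acat2, 39.1% also occur in another gene, its near copy Acat3 or the overlapping Tcp1, and for Fdps and Idi1 the shares were 26.2% and 25.3%, so their values are uncertain. The shares were 26.5% for Fdft1, with the overlapping Ctsb or Gm6781, and 11.6% for Hmgcs1, with 125 other genes. They were 9.96% for Scap, with 5830462I19Rik, 9.87% for Tm7sf2, with Vps51, and at most 4.39% for the other 19 genes. The kit did not mark strand, so reads of genes that overlap on opposite strands cannot be told apart.

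Of the 11 enzymes from squalene to cholesterol, 9 rose in the anterior pieces, with a median difference of 1.10. Fdft1, squalene synthase, had 119 and 90.0 TPM in Gcnf-/- anterior libraries against 45.1 and 49.4 TPM in wild type anterior libraries (1.11 ± 0.16, adjusted p = 0.002). Sqle, the epoxidase that is a control point of the pathway, had 240 and 171 TPM in Gcnf-/- against 111 and 124 TPM in wild type (0.78 ± 0.18, adjusted p = 0.016). Lss, which closes the sterol rings to give lanosterol, had 58.2 and 43.1 TPM in Gcnf-/- against 19.8 and 22.6 TPM in wild type (1.2 ± 0.22, adjusted p = 0.0064). In all of these enzymes library 159 was the highest of the 4. Cyp51, the lanosterol demethylase, had 359 and 237 TPM in Gcnf-/- against 118 and 131 TPM in wild type (1.22 ± 0.20, adjusted p = 0.0037). Tm7sf2, a sterol reductase that acts on the product of Cyp51, had 21.9 and 20.2 TPM in Gcnf-/- against 5.59 and 7.16 TPM in wild type (1.59 ± 0.14, adjusted p = 0.00027). This was the largest difference among the 26 genes, at a low level of expression.

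The next enzymes remove methyl groups from the sterol nucleus. Msmo1, the methylsterol oxidase, had 159 and 93.4 TPM in Gcnf-/- anterior libraries against 41.7 and 50.9 TPM in wild type anterior libraries (1.38 ± 0.25, adjusted p = 0.006). Nsdhl, the X-linked dehydrogenase of the same steps, had 120 and 95.4 TPM in Gcnf-/- against 48.5 and 54.9 TPM in wild type (1.04 ± 0.17, adjusted p = 0.004). Hsd17b7, the ketoreductase that completes them, did not pass (30.3 ± 8.7 TPM in Gcnf-/-, 23.2 ± 0.95 TPM in wild type, SD, n = 2 each; difference 0.34, adjusted p = 0.19). Nor did Ebp, the X-linked sterol isomerase (35.8 ± 4.7 TPM in Gcnf-/-, 29.9 ± 2.0 TPM in wild type; difference 0.25, adjusted p = 0.15). Sc5d, a sterol desaturase, had 59.2 and 40.9 TPM in Gcnf-/- against 28.5 and 27.4 TPM in wild type (0.80 ± 0.19, adjusted p = 0.019). Dhcr7, the reductase that yields cholesterol and is mutated in the human Smith-Lemli-Opitz syndrome, had 114 and 94.7 TPM in Gcnf-/- against 45.0 and 51.4 TPM in wild type (1.10 ± 0.15, adjusted p = 0.0018). The enzymes that did not pass were thus spread along the pathway and not at one end of it.

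Of the 5 sterol-sensing genes, 3 rose in the anterior pieces, with a median difference of 0.43. Srebf2, whose product is the main activator of cholesterol genes, had 264 and 278 TPM in Gcnf-/- anterior libraries against 163 and 163 TPM in wild type anterior libraries (0.73 ± 0.12, adjusted p = 0.0035). Srebf1, whose product drives mainly fatty acid genes, had 70.1 and 73.3 TPM in Gcnf-/- against 53.6 and 52.5 TPM in wild type (0.43 ± 0.10, adjusted p = 0.016). Insig1, which retains SREBP and is itself an SREBP target, had 165 and 116 TPM in Gcnf-/- against 58.9 and 72.7 TPM in wild type (1.06 ± 0.19, adjusted p = 0.0049). Its paralogue Insig2, which is not under the same sterol control, had 24.1 and 23.5 TPM in Gcnf-/- against 22.4 and 20.6 TPM in wild type (0.14, adjusted p = 0.51). Scap had 37.3 and 43.9 TPM in Gcnf-/- against 47.6 and 49.5 TPM in wild type, the one gene with a negative difference (-0.26 ± 0.10, adjusted p = 0.11). The activator and one of its brakes were thus higher, and the values of the escort protein pointed the other way without passing the test.

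Of the 3 carriers, 2 rose. Stard4, which moves sterol through the cytosol and is an SREBP target, had 107 and 70.1 TPM in Gcnf-/- anterior libraries against 29.5 and 32.6 TPM in wild type anterior libraries (1.45 ± 0.18, adjusted p = 0.00097). Npc2, the soluble lysosomal protein that hands cholesterol from endocytosed lipoproteins to NPC1, had 147 and 169 TPM in Gcnf-/- against 102 and 95.2 TPM in wild type (0.68 ± 0.10, adjusted p = 0.0019). Npc1, the membrane protein that receives it, did not pass (17.6 ± 1.9 TPM in Gcnf-/-, 14.0 ± 0.26 TPM in wild type, SD, n = 2 each; difference 0.30, adjusted p = 0.1).

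The anterior calls differed in how much they rested on single libraries. Of the 19 genes called, 15 kept the call in all 14 alternative fits set out with the design. Mvk lost it without wild type anterior library 153, Sqle without Gcnf-/- anterior library 159, without wild type anterior library 153 or with no filter on low values, Sc5d in these 3 cases and without wild type anterior library 156, and Srebf1 without Gcnf-/- anterior library 163 or either wild type anterior library. With both libraries numbered 153 left out, a setting tried after seeing the data, 3 of the 26 genes passed (3.04% of all genes rose there), and without both numbered 156, 10 passed (4.0%). The median difference in these 2 cases was 0.82 and 0.94, and 25 of the 26 differences stayed positive.

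**Figure D2:**
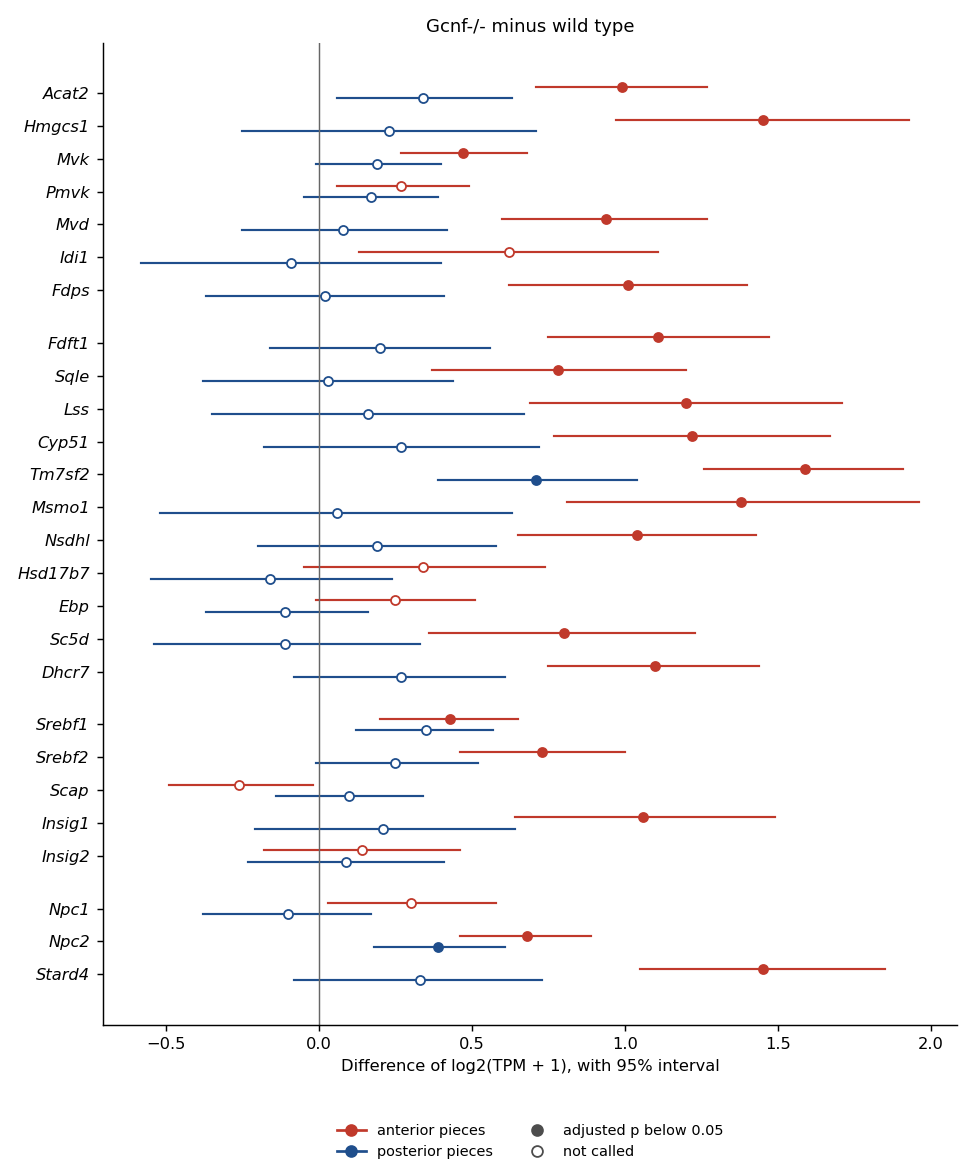
Difference between Gcnf-/- and wild type for each of the 26 genes on the log2(TPM + 1) scale, in anterior pieces (red, upper of each pair) and posterior pieces (blue), with 95% confidence intervals from limma. Filled points passed an adjusted p of 0.05, 19 in the anterior pieces and 2 in the posterior pieces, and every gene but Scap has its anterior point to the right of its posterior one.

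In the posterior pieces, 2 of the 26 genes rose in Gcnf-/- embryos and 0 fell, where 8.56% of all genes rose and 2.93% fell. With median-of-ratios scaling the genes over the whole table were split more evenly, with 1368 higher and 1153 lower against 1430 and 489 as reported, and with quantile normalization 1226 and 1050. The median difference of the 26 genes was 0.18, against 0.048 over all genes tested, and 4 had an unadjusted p below 0.05 (27.9% of all genes did). This median was 0.05 without Gcnf-/- posterior library 159 (0.067 over all genes) and 0.28 without 163 (0.041). It was 0.29 without wild type posterior library 153 (0.11 over all genes) and 0.06 without 156 (-0.01). Tm7sf2 had 15.3 and 13.7 TPM in Gcnf-/- posterior libraries against 9.04 and 7.88 TPM in wild type posterior libraries (0.71 ± 0.14, 95% interval 0.39 to 1.04, adjusted p = 0.017). Npc2 had 152 and 153 TPM in Gcnf-/- against 117 and 115 TPM in wild type (0.39 ± 0.10, 95% interval 0.18 to 0.61, adjusted p = 0.034). Neither call held under all alternatives: Tm7sf2 lost it without Gcnf-/- posterior library 159, wild type posterior library 153 or wild type posterior library 156, Npc2 lost it without any 1 of these, Gcnf-/- posterior library 163 or either wild type anterior library, and 0 of the 26 genes passed with no filter on low values. Both Gcnf-/- libraries lay above both wild type libraries for 9 genes (33.4% of all genes did) and below for 2, Hsd17b7 and Ebp (19.8%), and the libraries of 15 genes overlapped. Summed over the 18 enzymes, the level was 1472 and 1224 TPM in Gcnf-/- posterior libraries against 1292 and 1087 TPM in wild type posterior libraries.

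The posterior values of the mevalonate enzymes that had risen anteriorly did not pass the test. Acat2 had 194 and 181 TPM in Gcnf-/- posterior libraries against 149 and 146 TPM in wild type posterior libraries (0.34, adjusted p = 0.11). Hmgcs1 had 262 and 195 TPM in Gcnf-/- against 214 and 173 TPM in wild type. Only Acat2 of this pair was separate between genotypes. Mvk had 70.3 and 70.8 TPM in Gcnf-/- against 62.5 and 60.7 TPM in wild type. Mvd had 115 and 89.8 TPM in Gcnf-/- against 103 and 89.3 TPM in wild type, and Fdps 7.31 and 5.41 TPM in Gcnf-/- against 6.87 and 5.56 TPM in wild type. Over the 7 mevalonate enzymes the differences were between -0.09 and 0.34.

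Among the later enzymes the posterior libraries of the genotypes mostly overlapped. Fdft1 had 72.3 and 57.3 TPM in Gcnf-/- posterior libraries against 59.4 and 52.2 TPM in wild type posterior libraries, and Sqle 130 and 108 TPM in Gcnf-/- against 132 and 103 TPM in wild type. Lss had 33.4 and 20.7 TPM in Gcnf-/- against 25.9 and 21.2 TPM in wild type, with the widest relative gap between libraries 159 and 163 of these enzymes. Cyp51 had 190 and 154 TPM in Gcnf-/- against 159 and 127 TPM in wild type. Msmo1 had 70.1 and 54.1 TPM in Gcnf-/- against 69.4 and 50.4 TPM in wild type, where the genotypes nearly coincided (0.06 ± 0.25). Nsdhl had 75.4 and 61.5 TPM in Gcnf-/- against 69.1 and 51.4 TPM in wild type. Sc5d had 33.6 and 31.6 TPM in Gcnf-/- against 41.6 and 29.6 TPM in wild type, and Dhcr7 64.1 and 49.3 TPM in Gcnf-/- against 49.6 and 43.7 TPM in wild type. Apart from Tm7sf2, the differences of these enzymes lay between -0.16 and 0.27, and the 95% intervals reached up to 0.72, as for Cyp51.

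The sensing and carrier genes had posterior values as follows. Srebf2 had 209 and 166 TPM in Gcnf-/- posterior libraries against 162 and 150 TPM in wild type posterior libraries (0.25, adjusted p = 0.2). Srebf1 had 73.3 and 64.2 TPM in Gcnf-/- against 55.8 and 51.7 TPM in wild type (0.35, adjusted p = 0.057), close to its anterior difference. Both SREBP genes were separate between genotypes and neither passed. Insig1 had 86.5 and 76.9 TPM in Gcnf-/- against 79.0 and 62.5 TPM in wild type, and Stard4 70.0 and 68.2 TPM in Gcnf-/- against 59.2 and 51.0 TPM in wild type (0.33, adjusted p = 0.27).

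Whether the genotype difference itself differed between anterior and posterior pieces was tested as an interaction. Of the 26 genes 0 passed after adjustment in limma, where 0.413% of all genes were called higher and 0.599% lower, and 19 had an unadjusted p below 0.05, where 12.6% of all genes did. The anterior difference exceeded the posterior one for 25 of the 26 genes, with a median excess of 0.79, against -0.041 over all genes tested. The smallest adjusted p was 0.089, for Stard4 (excess 1.12 ± 0.25, 95% interval 0.55 to 1.69). Msmo1 had the largest excess, 1.33 ± 0.36 (adjusted p = 0.15), followed by Hmgcs1 with 1.22 ± 0.30 (adjusted p = 0.12). Srebf1 (0.08 ± 0.14) and Insig2 (0.05 ± 0.20) had excesses smaller than their errors, and Scap had the one negative value (-0.36 ± 0.15, adjusted p = 0.36). No gene of the set can thus be said to respond in the anterior pieces alone. With genes filtered at 5 TPM, 1 gene passed, Stard4, where 0.667% of all genes were called higher. The median excess was 0.97 without Gcnf-/- anterior library 163 and 0.91 without Gcnf-/- posterior library 159. Without both libraries numbered 163, a setting chosen after seeing the data, it was 0.84.

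Within Gcnf-/- embryos, 15 of the 26 genes were lower in the posterior than in the anterior pieces and 0 were higher, where 8.1% of all genes were lower and 8.01% higher. The median difference, posterior minus anterior, was -0.59, against -0.036 over all genes tested. Both posterior libraries lay below both anterior ones for 20 of the 26 genes (30.0% of all genes did) and above for 0 (22.0%). The Gcnf-/- anterior libraries also enter the anterior genotype comparison, so these calls are not separate evidence. Hmgcs1 differed most, with 262 and 195 TPM in the posterior and 595 and 404 TPM in the anterior libraries (-1.11 ± 0.21, adjusted p = 0.0072). Msmo1 (-0.97 ± 0.25, adjusted p = 0.032), Lss (-0.90 ± 0.22, adjusted p = 0.026) and Dhcr7 (-0.88 ± 0.15, adjusted p = 0.0046) followed. The called genes were 5 mevalonate enzymes, 8 later enzymes, Srebf2 and Insig1. The calls of Hmgcs1, Mvd and Dhcr7 held in every alternative fit set out with the design. With no filter on low values, 6 of the 26 genes were called lower, where 3.06% of all genes were. The median difference was -0.46 without Gcnf-/- anterior library 159 and -0.5 without Gcnf-/- posterior library 163.

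Within wild type embryos the same comparison gave 2 genes higher and 0 lower in the posterior pieces, where 7.86% of all genes were higher and 6.65% lower. Stard4 had 59.2 and 51.0 TPM in the posterior and 29.5 and 32.6 TPM in the anterior libraries (0.80 ± 0.18, adjusted p = 0.016). Ebp had 44.0 and 40.8 TPM in the posterior and 31.2 and 28.5 TPM in the anterior libraries (0.49 ± 0.12, adjusted p = 0.022). The median difference was 0.11, against -0.097 over all genes tested, and both posterior libraries lay above both anterior ones for 8 genes (21.5% of all genes did) and below for 4 (41.7%). Both calls were lost without any 1 of the 4 wild type libraries and with no filter on low values. The summed level of the 18 enzymes was 1190 ± 140 TPM in wild type posterior and 1114 ± 100 TPM in wild type anterior pieces (SD, n = 2 each), so that the wild type pieces and the Gcnf-/- posterior piece, at 1348 ± 180 TPM, lay closer to each other than to the Gcnf-/- anterior piece, at 2310 ± 460 TPM.

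**Figure D3:**
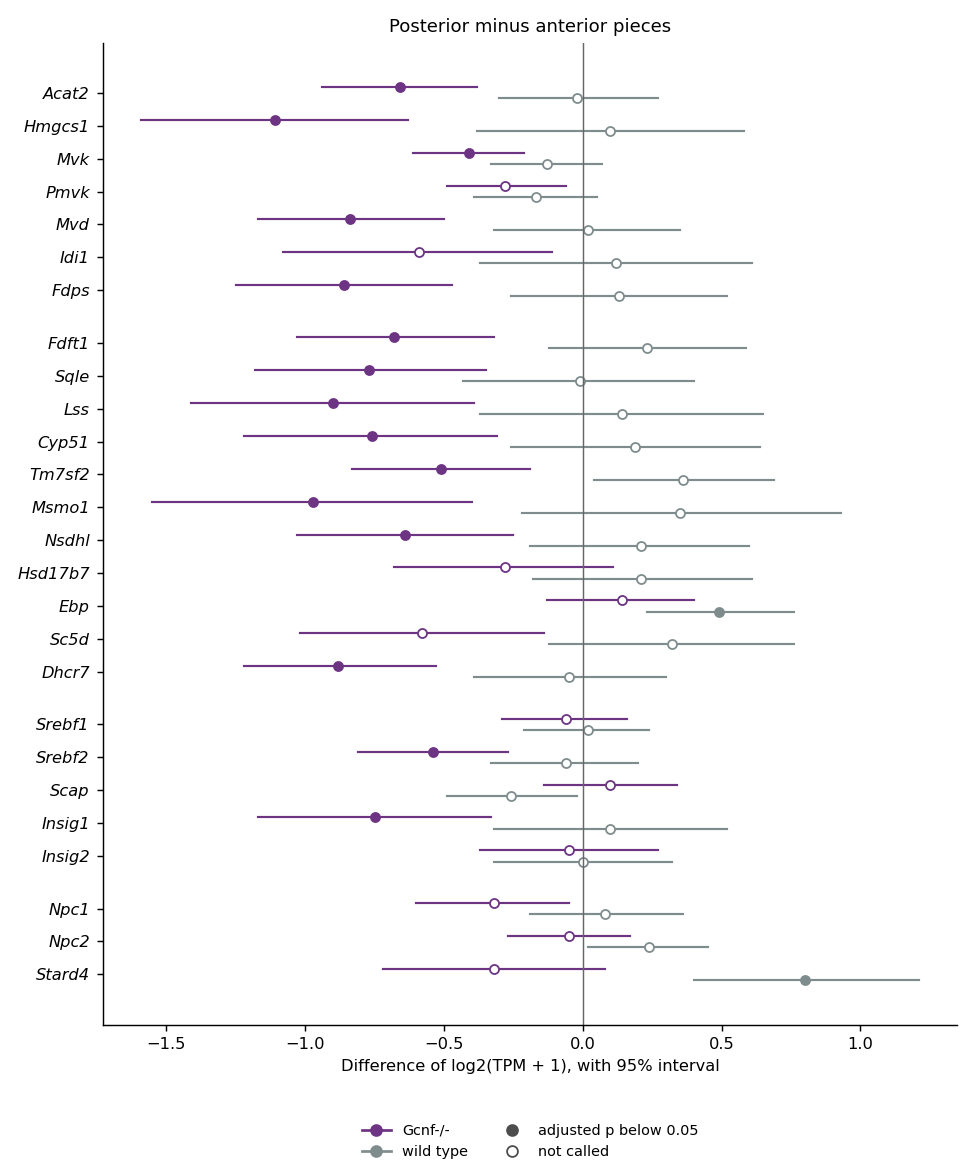
Difference between posterior and anterior pieces for each of the 26 genes on the log2(TPM + 1) scale, in Gcnf-/- embryos (purple, upper of each pair) and wild type embryos (grey), with 95% confidence intervals from limma. Filled points passed an adjusted p of 0.05. In Gcnf-/- embryos 15 genes were called, all to the left of 0, and in wild type embryos Ebp and Stard4 were called, to the right of 0.

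The genes varied together between the libraries of a group. Among Gcnf-/- anterior libraries, 17 of the 18 enzymes were higher in 159 than in 163, with a median difference of 0.36 (159 minus 163), while 37.4% of all genes were higher in 159. Ebp was the exception. Among Gcnf-/- posterior libraries 17 of 18 were also higher in 159 (median 0.28, 45.4% of all genes). Among wild type posterior libraries 18 of 18 were higher in 153 than in 156 (median 0.23, 74.2% of all genes), and among wild type anterior libraries 3 of 18 were (median -0.16, 60.3% of all genes). Library 159 therefore held the highest enzyme level in both regions of Gcnf-/- embryos. The libraries numbered 159 were also the ones with Xist (25.3 and 30.9 TPM), so sex goes with the gap between 159 and 163. All wild type libraries had Ddx3y instead, so sex was also unequal between the genotypes. The part of sex in the cholesterol gene values was not tested. Without both libraries numbered 159, chosen after seeing the data, the median anterior difference of the 26 genes was 0.78. Over all genes tested in that fit the median was 0.042, and 25 of the 26 differences were positive.

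Neighbouring pathways were counted from lists grouped by function, which were chosen with earlier results of these data known. Their anterior counts stand against 13.3% of all genes higher and 10.2% lower, with a median over all genes of 0.020. The list medians were 0.55 for acetyl-CoA supply, 0.39 for fatty acid synthesis, 0.24 for esterification, efflux and oxysterol metabolism, and 0.04 for lipoprotein uptake and lysosome. Of 3 genes that supply acetyl-CoA 2 rose in the anterior pieces and 0 fell: Acss2, acetyl-CoA synthetase (5.11 ± 0.21 TPM in Gcnf-/-, 2.44 ± 0.066 TPM in wild type, SD, n = 2 each; 0.83 ± 0.17, adjusted p = 0.01), and Acly, the citrate lyase (0.55 ± 0.15, adjusted p = 0.032). Of 13 fatty acid synthesis genes 6 rose and 1 fell, among them the desaturases Scd1 (304 ± 83 TPM in Gcnf-/-, 118 ± 20 TPM in wild type; 1.34 ± 0.27, adjusted p = 0.0082), Scd2 (0.93 ± 0.19, adjusted p = 0.0087) and Fads1 (0.65 ± 0.11, adjusted p = 0.0045) and the elongase Elovl6 (0.90 ± 0.18, adjusted p = 0.0092). The one that fell was Gpam, which starts glycerolipid assembly (-0.48, adjusted p = 0.0099; named after its value was seen). Of 13 lipoprotein uptake and lysosome genes 3 rose and 0 fell: Vldlr, a lipoprotein receptor that also binds reelin (23.3 ± 4.2 TPM in Gcnf-/-, 5.59 ± 0.25 TPM in wild type; 1.87 ± 0.18, adjusted p = 0.00035), Scarb1, which takes up cholesterol from high-density lipoprotein (0.78 ± 0.10, adjusted p = 0.001), and Gramd1c, a sterol transfer protein (0.61, adjusted p = 0.044). Of 11 genes of sterol esterification, efflux and oxysterol metabolism 2 rose and 0 fell, Cyp27a1 (3.72 ± 0.28 TPM in Gcnf-/-, 0.532 ± 0.20 TPM in wild type; 1.63 ± 0.18, adjusted p = 0.00065) and Cyp7b1 (0.81 ± 0.16, adjusted p = 0.0085), both hydroxylases of sterols. The counts of the acetyl-CoA list and of the last 2 lists lay within 2 genes of what the share over all genes gives. They are no result about those lists as a whole.

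A further 2 lists share mevalonate or the SREBP machinery, and their anterior counts stand against the same 13.3% higher and 10.2% lower. Of 13 genes of the isoprenoid branches, which use farnesyl units for protein prenylation, dolichol and ubiquinone, 0 rose and 3 fell: Icmt, which methylates prenylated proteins (50.7 ± 4.5 TPM in Gcnf-/-, 78.4 ± 4.4 TPM in wild type; -0.62 ± 0.10, adjusted p = 0.0043), Pdss1, of the ubiquinone side chain (-0.82 ± 0.16, adjusted p = 0.0086), and Fnta, a prenyltransferase subunit (-0.34 ± 0.10, adjusted p = 0.04). The median of the list was -0.16. Of 11 genes that process or degrade SREBP and its regulators 0 rose and 1 fell, Ube2g2, a ubiquitin-conjugating enzyme (-0.37, adjusted p = 0.033), with a median of -0.04. Lists of this size would hold 1 or 2 calls each way at the shares over all genes, so the absence of higher genes is a description of these lists only.

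In the posterior pieces 8.56% of all genes were higher and 2.93% lower, and each of these lists had 0 to 2 genes called higher and 0 or 1 lower, from which nothing is read about a list as a whole. The acetyl-CoA and SREBP processing lists had 0 calls among 3 and 11 genes (limma, 1 and 0 at an unadjusted p below 0.05, as were 27.9% of all genes). In the fatty acid list 1 of 13 genes rose, Fads1 (0.44, adjusted p = 0.038), and in the isoprenoid list 1 of 13 fell, Icmt (-0.41, adjusted p = 0.042). Vldlr rose with 20.9 ± 4.9 TPM in Gcnf-/- and 6.87 ± 0.59 TPM in wild type posterior pieces (SD, n = 2 each; 1.46, adjusted p = 0.002). In its list Gramd1a rose (0.73, adjusted p = 0.028) and Gramd1b fell (-0.60, adjusted p = 0.048). Cyp27a1 (1.23, adjusted p = 0.0047) and Cyp7b1 (0.68, adjusted p = 0.032) also rose. No gene of these 6 lists passed the test of the difference between regions in limma, where 6 had an unadjusted p below 0.05 (12.6% of all genes did).

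**Figure D4:**
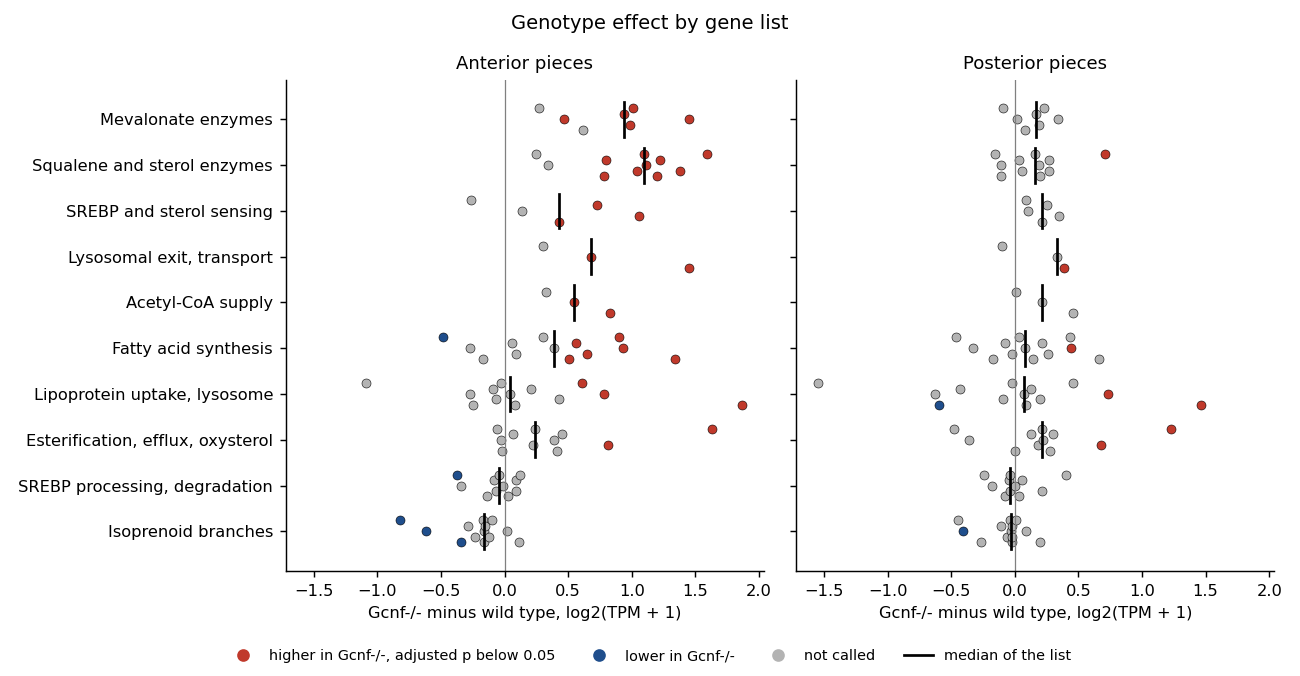
Difference between Gcnf-/- and wild type on the log2(TPM + 1) scale for each tested gene (point) of 10 lists, in anterior and posterior pieces, with the median of each list as a black bar. Red points were called higher and blue points lower at an adjusted p of 0.05, and the anterior medians ran between 1.10 for the squalene and sterol enzymes and -0.16 for the isoprenoid branches.

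Markers of other cells and states were counted in the same libraries, against 13.3% of all genes higher and 10.2% lower in the anterior pieces and 8.56% higher and 2.93% lower in the posterior pieces. Their part in the cholesterol gene values was not tested. Of 12 early neuron markers 11 rose in the anterior and 9 in the posterior pieces, and their summed level was 486 to 681 TPM in Gcnf-/- anterior against 175 to 176 TPM in wild type anterior libraries, and 165 to 166 TPM in Gcnf-/- posterior against 73.8 to 80 TPM in wild type posterior libraries. Of 25 hypoxia and glycolysis genes 17 rose in each region, with a summed level of 14268 to 17702 TPM in Gcnf-/- anterior against 11735 to 12310 TPM in wild type anterior libraries. Of 10 primitive erythroid markers 5 rose in each region, and their summed level was 44047 TPM in Gcnf-/- anterior library 159 and 25589 TPM in 163, against 4395 and 10068 TPM in wild type anterior libraries. Of 11 neural crest markers 7 fell in the anterior pieces, and 4 fell and 2 rose in the posterior pieces. Visceral endoderm, a tissue with active lipoprotein metabolism, had 0 of 15 markers called in the anterior pieces and 6 lower in the posterior pieces, where the summed level was 269 to 1349 TPM in Gcnf-/- against 2448 to 2955 TPM in wild type. In the anterior pieces it was 19.7 to 29.4 TPM in Gcnf-/- against 27.7 to 179 TPM in wild type. Heart markers had 0 of 9 called in either region (limma, 1 anterior and 0 posterior at an unadjusted p below 0.05, as were 6228 and 4652 of all 16699 genes). Their summed level was uneven within groups, with 474 and 155 TPM in Gcnf-/- anterior and 181 and 46.1 TPM in wild type anterior libraries. It was 3780 and 499 TPM in Gcnf-/- posterior and 542 and 1644 TPM in wild type posterior libraries, so the absence of calls shows no equality. Of 8 endothelial markers 2 rose in each region. Of 7 macrophage markers 2 could be tested, 1 of which rose in each region, and Cx3cr1, Tyrobp and Ctss were listed at 0 in all 4 anterior libraries. With so few genes, nothing is read from the counts of the endothelial and macrophage lists.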

How the data were processed

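RNA from tissue stored in RNAlater was made into non-stranded poly-A TruSeq libraries, per the labels' protocols. CASAVA 1.8.2, STAR and the mm10 build are named by the submitters' processing notes, and no source used here gives the STAR version, the annotation or the counting tool. The authors deposited TPM values. Names, positions and exon lengths came from a GENCODE annotation of the same build, and 55154 of 55421 identifiers were named. TPM was multiplied by exon length and divided by a constant, fitted in each library so that low values became whole numbers. This gave whole reads within 0.01 for 98.8% to 98.89% of values. Genes with at least 1 TPM in at least 2 libraries were kept. Values of log2(TPM + 1) were fitted by limma 3.58.1 in R 4.3.3 to 4 group means over all 8 libraries, with a mean-dependent prior variance, 4 residual and 4.68 prior degrees of freedom, two-sided tests and Benjamini-Hochberg adjustment within a contrast at 0.05. This scale understates changes of low genes, and TPM is relative to the total of a library. Genes called in a genotype comparison or with the 4 largest called region differences are given in every library, and up to 4 genes with the smallest p of each neighbouring list are named. The 26 genes and all lists were chosen with earlier results of these data known. Of 211 listed genes 1, a marker, was not matched. Alternatives changed the pseudocount to 0.1, the filter, the scaling, the libraries fitted and the replicate block, and left out libraries.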

Additional observations from a re-analysis of the deposited data

How the results depend on the processing

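No alternative turned the sign of a called gene. Over all alternatives the 19 anterior calls were kept 305 times and lost 37 times. The anterior count was 15 to 20 when 1 library was left out, 17 with no filter, 3 without both libraries numbered 153 and 10 without both numbered 156, and its median difference was 0.78 to 1.07 with 1 library left out and 1.07 without both numbered 163. The posterior count was 0 with no filter, 3 with the filter at 5 TPM, 3 with quantile normalization, 1 with only the 4 libraries compared, 0 to 3 with 1 library left out, 1 without both numbered 159, 3 without both numbered 163, and 0 without both numbered 153 or 156. The interaction count was 1 with the filter at 5 TPM, 0 to 2 with 1 library left out and 5 without both numbered 163, and its median was 0.57 to 0.97 with 1 library left out, 0.51 without both numbered 153 and 1.02 without both numbered 156. The Gcnf-/- region count was 6 with no filter, 6 with only the 4 libraries compared, 3 to 15 with 1 library left out, 9 without both numbered 159 and 5 without both numbered 153 or 156, with a median of -0.78 to -0.46 with 1 library left out. The wild type region count was 0 with no filter, 3 with median-of-ratios scaling, 3 with quantile normalization, 0 to 2 with 1 library left out and 0 without both numbered 153 or 156, and its median was -0.01 to 0.25 with 1 library left out, -0.07 without both numbered 153 and 0.30 without both numbered 156. Where a library is left out, the lone library of its group is assumed to vary like the other groups. Where a filter or fewer libraries changed a count, fewer or more genes or libraries entered the fit, and for the other changes the cause was not tested. The share of all genes called changed between fits too. With no filter, 4.93% of all genes were higher in the anterior and 2.19% in the posterior comparison, against 13.3% and 8.56% as reported. In the Gcnf-/- region comparison 3.06% were lower, against 8.1%. Libraries of both regions share numbers, but these were not shown to mark an embryo: deviations of same-numbered libraries correlated at 0.136 in Gcnf-/- and 0.0216 in wild type. The sex markers of Gcnf-/- libraries did match between regions for each number, which libraries of the same embryo must do but other embryos of that sex would too. Wild type libraries were alike in these markers, so the markers cannot decide it there. With a replicate block the interaction count was 0, the Gcnf-/- region count 15 and the wild type region count 2, as without it.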
